A study of Homo sapiens with 8 samples.

Results

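Neurotrophin signaling was followed through NGFR, BDNF, NTF3, NTRK2, NTRK3 and SORT1. They are 6 of the 26364 genes in the count file, taken from it by symbol, and 4 of the 6 had enough reads for the fit across 14201 genes. The RNA came from the human glioblastoma cell line LN229, carrying a stably selected plasmid (pcDNA3.1) that expresses Survivin, the product of BIRC5, fused to eGFP. In the Surv-GFP clone (D6) the fusion had a functional nuclear export signal (NES) and was predominantly cytoplasmic in unexposed cells. In the SurvNESmut-GFP clone (L2) the NES was mutated and the fusion was nuclear. Each clone was left untreated or was exposed to 50 µM temozolomide (TMZ), a methylating anticancer drug, for 48 h, which gave 4 groups of 2 libraries, replicates a and b. All cells were grown with the selection drug G418. The study reports that the Surv-GFP fusion also accumulated in the nucleus after TMZ. Each genotype was represented by 1 clone, so that the NES mutation and other differences between the clones cannot be told apart. The study describes independent biological replicates with technical duplicates, but the labels do not say which of these the letters are. The p-values therefore measure the spread between these libraries, which may be technical.

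Neurotrophins are secreted growth factors made as precursors. Mature BDNF binds the tyrosine kinase TrkB (NTRK2), and neurotrophin 3 (NTF3) binds TrkC (NTRK3), while all neurotrophins also bind the receptor p75NTR (NGFR), a member of the tumor necrosis factor receptor family. Uncut precursors bind NGFR together with the sorting receptor sortilin (SORT1), a pair known for signaling cell death in neurons, and sortilin also carries cargo between the Golgi apparatus, endosomes and the cell surface. In glioma, NGFR has been studied as a receptor linked to cell migration.

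BDNF is known for being transcribed from many start sites, each with its own promoter, whereas the file holds 1 count per gene. The sequences next to the 5 start sites of BDNF are shown, with that of the first of 2 start sites of SORT1. RefSeq windows (GRCh38.p14) were found for 5 of the 6 genes. NGFR was not among them. Given here are the 100 bases before the start site, 5′ to 3′ on the strand of the gene, with motif matches in capitals.
BDNF start site 1, chr11:27722031-27722130, minus strand: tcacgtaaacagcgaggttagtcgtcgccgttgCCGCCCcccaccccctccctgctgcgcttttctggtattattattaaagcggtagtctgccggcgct
BDNF start site 2, chr11:27720780-27720879, minus strand: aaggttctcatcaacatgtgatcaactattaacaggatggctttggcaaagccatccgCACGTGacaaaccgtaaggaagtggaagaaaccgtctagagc
BDNF start site 3, chr11:27719567-27719666, minus strand: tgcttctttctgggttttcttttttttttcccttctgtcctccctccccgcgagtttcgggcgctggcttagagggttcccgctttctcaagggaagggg
BDNF start site 4, chr11:27701622-27701721, minus strand: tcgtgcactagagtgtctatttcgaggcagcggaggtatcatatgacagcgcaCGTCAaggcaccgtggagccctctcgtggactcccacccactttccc
BDNF start site 5, chr11:27659659-27659758, minus strand: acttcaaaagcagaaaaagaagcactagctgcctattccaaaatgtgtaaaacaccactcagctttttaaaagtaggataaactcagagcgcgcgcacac
SORT1 start site 1, chr1:109397919-109398018, minus strand: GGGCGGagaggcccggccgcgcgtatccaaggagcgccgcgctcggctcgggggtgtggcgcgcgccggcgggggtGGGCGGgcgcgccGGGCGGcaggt

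The motifs searched on either strand were the CRE half-site (CGTCA or TGACG), the E-box (CACGTG) and the GC box (GGGCGG or CCGCCC). The CRE half-site is the core of the element bound by CREB, through which neuronal activity is known to act on BDNF. A half-site occurred at start site 4 of BDNF, an E-box at start site 2 and a GC box at start site 1, while start sites 3 and 5 held none of the 3 motifs in this window. The first start site of SORT1 held 3 GC boxes, and the second, not shown, held none of the 3 motifs. Of the other windows not shown, start site 3 of NTRK2 held a half-site. GC boxes occurred at start site 2 of NTRK2 and at both start sites of NTF3. Of 35116 windows of the same length, 11.7% held a CRE half-site, 3.43% an E-box and 31.3% a GC box. Which start site the BDNF reads came from, and whether the reads of NTRK2 and NTRK3 came from receptors with or without a kinase domain, was not analysed here.

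The 6 genes were chosen by their measured levels and fold changes in the same 5 contrasts. Their levels and log2 fold changes are therefore descriptions without a p-value, and the standard error (SE) of a fold change comes from the fit to all 8 libraries. Levels are CPM, the read counts scaled to a common library size after normalization. Reads cannot tell fewer expressing cells from less RNA per cell.

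NGFR, the receptor of all neurotrophins, showed the widest range of the 4 genes with enough reads. Its level in untreated Surv-GFP cells was 25.1 CPM in replicate a and 22.2 CPM in replicate b. After TMZ the Surv-GFP libraries had 29.1 and 33.0 CPM. The untreated SurvNESmut-GFP libraries had 156 and 153 CPM, and those exposed to TMZ 295 and 267 CPM. No group overlapped another, and the lowest SurvNESmut-GFP library lay far above the highest Surv-GFP library. The group means were 23.7 ± 2.01, 31.0 ± 2.77, 154 ± 2.38 and 281 ± 19.2 CPM (SD, n = 2), in the same order.

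Between the clones, NGFR was 6.52-fold higher in SurvNESmut-GFP without TMZ, a log2 difference of 2.70 (SE 0.07). With TMZ it was 9.06-fold higher, a log2 difference of 3.18 (SE 0.07). TMZ exposure went with a log2 change of 0.39 (SE 0.09) in Surv-GFP and of 0.86 (SE 0.06) in SurvNESmut-GFP, and the second value exceeded the first by 0.48 (SE 0.10). NGFR was thus higher after TMZ in both clones, by less than the distance between the clones. Without replicate b of the TMZ-exposed Surv-GFP cells the change in Surv-GFP was 0.27. The annotation used here (GENCODE v29) places exons of AC006487.1 and AC015656.1 on the opposite strand of NGFR, over 4.87% and 22.3% of its exon bases. Neither is among the genes of the file, and whether strand was used in counting is unstated.

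SORT1, the partner of NGFR in binding uncut neurotrophins, was abundant in all libraries. Untreated Surv-GFP cells had 157 and 164 CPM, and TMZ-exposed Surv-GFP cells 150.2 and 144 CPM. Untreated SurvNESmut-GFP cells had 238 and 224 CPM, and exposed ones 201 and 232 CPM. The 4 SurvNESmut-GFP libraries all lay above the 4 Surv-GFP libraries. Within SurvNESmut-GFP the libraries with and without TMZ overlapped, and within Surv-GFP both exposed libraries lay slightly below the untreated ones. The clone difference was 0.53 on the log2 scale without TMZ and 0.56 with TMZ (SE 0.06 each), which corresponds to 1.44-fold and 1.47-fold. The TMZ changes were −0.12 (SE 0.06) in Surv-GFP and −0.09 (SE 0.06) in SurvNESmut-GFP, and the latter turned to 0.01 without replicate a of the exposed SurvNESmut-GFP cells.

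BDNF, the ligand of TrkB, had the largest change after TMZ of these 4 genes in each clone. In Surv-GFP its level was 4.88 and 3.92 CPM in untreated and 13.5 and 14.8 CPM in exposed cells. In SurvNESmut-GFP it was 11.1 and 10.5 CPM in untreated and 23.9 and 27.5 CPM in exposed cells. The 4 groups did not overlap, and exposed Surv-GFP cells ranked between the untreated and the exposed SurvNESmut-GFP cells. The group means were 4.40 ± 0.678, 14.1 ± 0.942, 10.8 ± 0.396 and 25.7 ± 2.57 CPM (SD, n = 2), from untreated Surv-GFP to exposed SurvNESmut-GFP.

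With TMZ, BDNF was 3.21-fold higher in Surv-GFP, a log2 change of 1.68 (SE 0.14), and 2.38-fold higher in SurvNESmut-GFP, a log2 change of 1.25 (SE 0.11). The change in SurvNESmut-GFP was thus smaller by a log2 difference of −0.43 (SE 0.18), opposite in sign to that of NGFR. This value ranged from −0.60 to −0.29 when replicate a or b of untreated Surv-GFP was left out. Between the clones BDNF was higher in SurvNESmut-GFP by 1.29 (SE 0.15) without and 0.86 (SE 0.10) with TMZ on the log2 scale. The antisense gene BDNF-AS shares 701 bases, or 9.06% of the BDNF exon bases in this annotation. Its counts were 9 and 13 in untreated Surv-GFP, 14 and 4 in exposed Surv-GFP, 5 and 4 in untreated SurvNESmut-GFP and 0 and 7 in exposed SurvNESmut-GFP, against 71 to 437 for BDNF.

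NTRK2, which encodes TrkB, was counted with only 24 to 46 reads per library. Surv-GFP cells had 2.49 and 2.21 CPM without and 2.14 and 1.61 CPM with TMZ. SurvNESmut-GFP cells had 1.52 and 1.33 CPM without and 1.81 and 2.21 CPM with TMZ. The exposed groups of the clones overlapped, whereas the untreated SurvNESmut-GFP libraries were the lowest of the 8. The log2 change with TMZ was −0.32 (SE 0.24) in Surv-GFP and 0.49 (SE 0.27) in SurvNESmut-GFP, with a difference of 0.81 (SE 0.36). The clone difference was −0.72 (SE 0.25) without and 0.09 (SE 0.25) with TMZ. Leaving out replicate a or b of exposed Surv-GFP gave −0.54 or −0.17 for its TMZ change, and 0.28 or −0.098 for the clone difference with TMZ.

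NTF3 and NTRK3, the ligand and receptor of the other pair, did not pass the filter on low counts. Both had 0 reads in all 4 Surv-GFP libraries. NTF3 had 4 and 2 reads in untreated and 5 and 3 reads in exposed SurvNESmut-GFP cells. NTRK3 had 2 and 1 reads in untreated and 3 and 3 reads in exposed SurvNESmut-GFP cells. Reads of both genes were thus seen in each SurvNESmut-GFP library and in no Surv-GFP library, at numbers near the limit of detection.

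A count of 0 over the 2 libraries of a group allows up to 3 counts, or 0.0820 CPM in untreated and 0.0831 CPM in exposed Surv-GFP cells. NTF3 was at 0.165 CPM in untreated SurvNESmut-GFP cells, 2.01 times this floor over the group, with a 95% exact Poisson interval from 0.0604 to 0.358. In exposed cells it was at 0.243 CPM (0.105 to 0.478), 2.92 times the floor. NTRK3 was at 0.182 CPM (0.0668 to 0.396) in exposed SurvNESmut-GFP cells, 2.19 times the floor. No fold is given for NTRK3 in untreated cells, where its 3 reads equal the floor. The intervals of NTF3 in untreated and NTRK3 in exposed cells reach below the floor. None of these folds is therefore a lower bound. Intervals and floors cover counting error only.

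**Figure D1:**
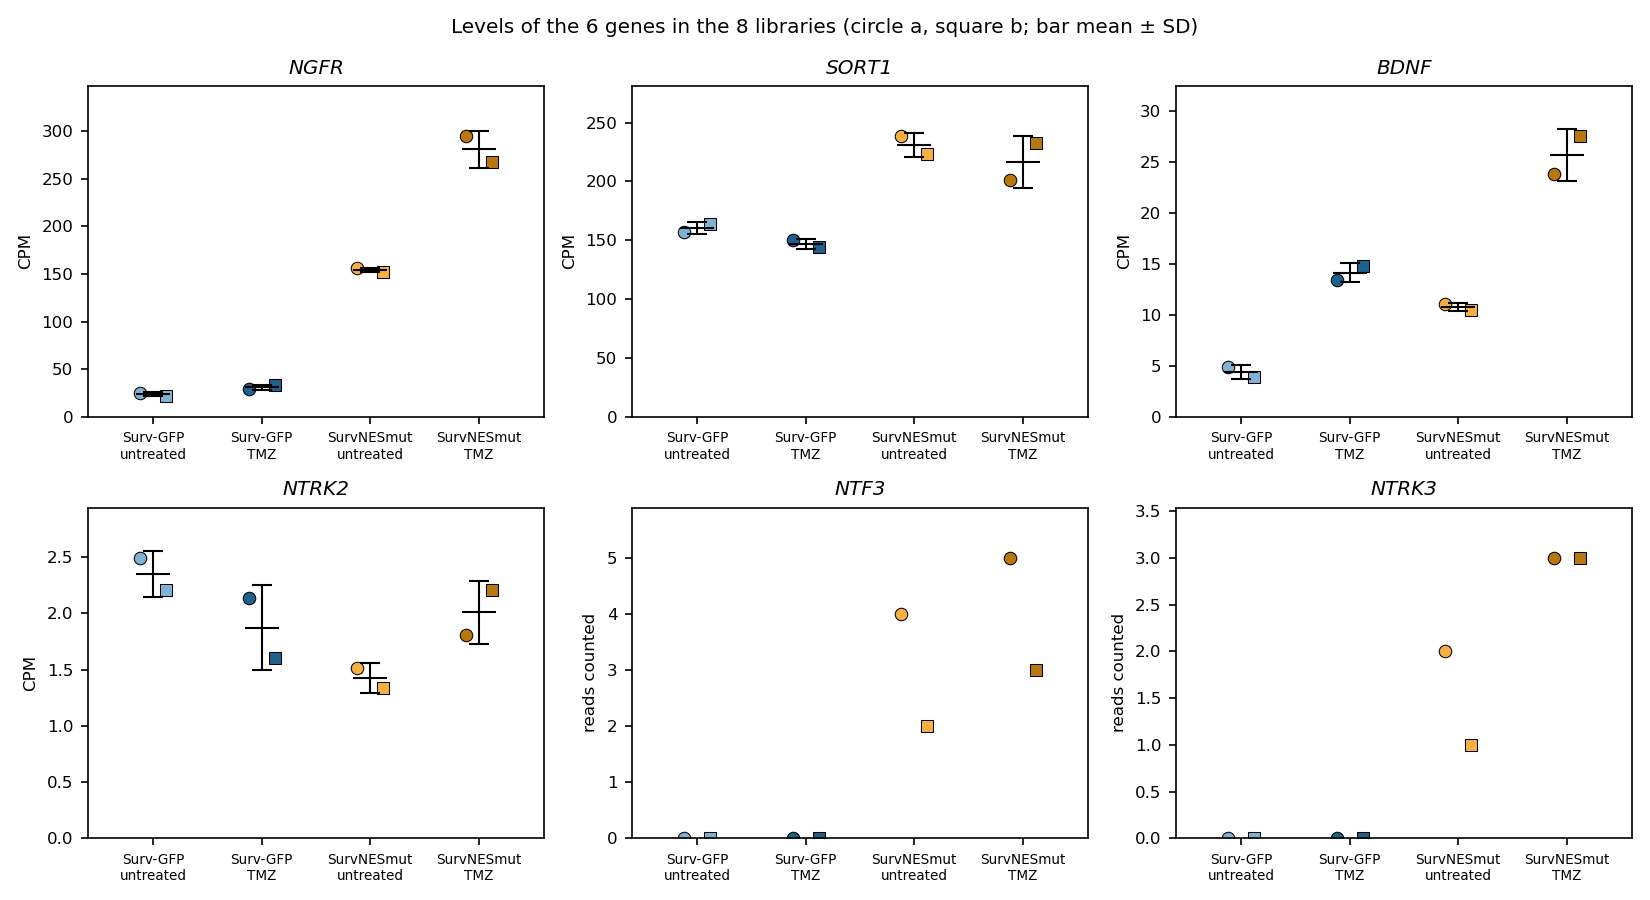
Level of each of the 6 genes in the 8 libraries by group, in CPM for NGFR, SORT1, BDNF and NTRK2 and in reads counted for NTF3 and NTRK3. Circles are replicate a, squares replicate b, and bars give the mean ± SD of 2 libraries. NGFR lies between 22.2 and 33.0 CPM in Surv-GFP and between 153 and 295 CPM in SurvNESmut-GFP, and NTF3 and NTRK3 have reads in SurvNESmut-GFP libraries only.

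NTF4, another ligand of TrkB, had 5 and 3 reads in untreated and 1 and 4 reads in exposed Surv-GFP cells, and 6 and 11 reads in untreated and 6 and 7 reads in exposed SurvNESmut-GFP cells. It did not pass the filter on low counts either.

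Of the 6 genes, 2 were called higher at an adjusted p under 0.05 after TMZ in Surv-GFP and 0 lower, where 30.1% of all tested genes were higher and 28.9% lower. In SurvNESmut-GFP 2 were higher and 0 lower after TMZ, against 18.6% and 19.1% of all genes. The difference of the TMZ effects (SurvNESmut-GFP minus Surv-GFP) was called above 0 for 1 gene and below 0 for 0 genes, against 16.6% and 20.2%. Without TMZ 3 genes were higher and 1 lower in SurvNESmut-GFP, against 34.7% and 29.4%, and with TMZ 3 were higher and 0 lower, against 34.5% and 34.7%. These contrasts also served to choose the genes, so nothing is read from the counts.

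**Figure D2:**
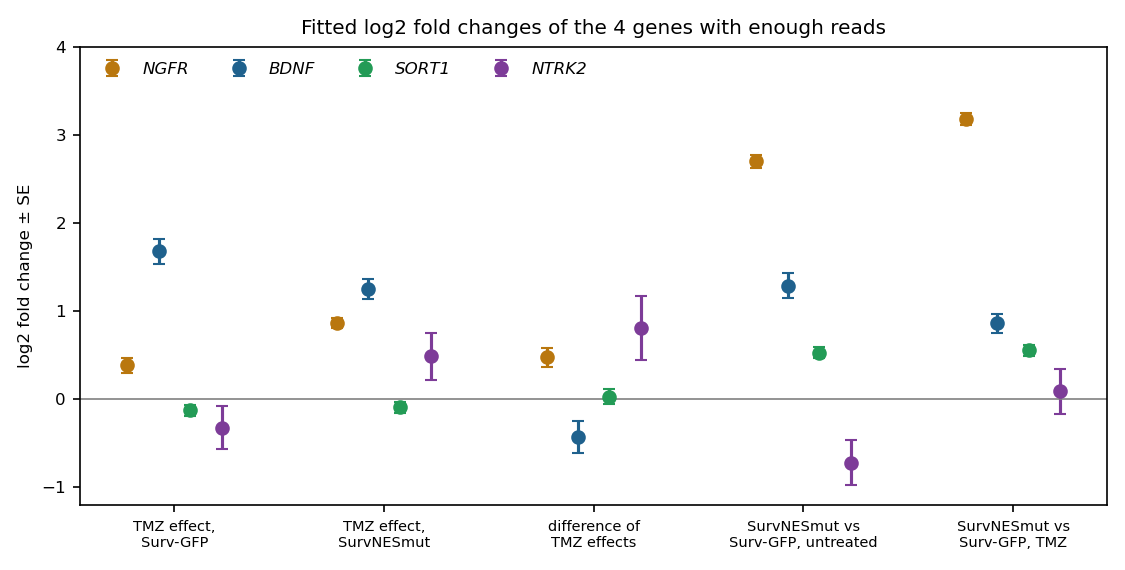
Fitted log2 fold changes with their SE for the 4 genes that passed the filter on low counts, in the TMZ effect of each clone, the difference of these effects (SurvNESmut-GFP minus Surv-GFP) and the clone difference without and with TMZ. NGFR has the largest clone difference, 2.70 without and 3.18 with TMZ, and BDNF the largest TMZ effect, 1.68 and 1.25.

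To compare genes with each other, CPM was divided by the length of all annotated exons of a gene in kb, which is 4150 bases for NGFR, 9160 for SORT1, 7740 for BDNF and 20363 for NTRK2. On this scale SORT1 was the most abundant of the set in Surv-GFP, at 17.5 ± 0.539 without and 16.1 ± 0.457 with TMZ, against 5.70 ± 0.485 and 7.48 ± 0.667 for NGFR (CPM per kb, SD, n = 2). In SurvNESmut-GFP the order was turned, with NGFR at 37.2 ± 0.575 and 67.7 ± 4.63 against 25.2 ± 1.12 and 23.7 ± 2.40 for SORT1. BDNF was at 0.568 ± 0.0876, 1.83 ± 0.122, 1.39 ± 0.0512 and 3.32 ± 0.333 CPM per kb from untreated Surv-GFP to exposed SurvNESmut-GFP. NTRK2 stayed between 0.0700 and 0.115 CPM per kb in the group means.

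The ratio of NGFR to SORT1 per kb was 0.353 and 0.300 in the untreated and 0.428 and 0.505 in the exposed Surv-GFP libraries. It was 1.45 and 1.51 in the untreated and 3.23 and 2.54 in the exposed SurvNESmut-GFP libraries. Per kb, SORT1 therefore exceeded NGFR in every Surv-GFP library and NGFR exceeded SORT1 in every SurvNESmut-GFP library. Without the division by length, NGFR was below SORT1 in untreated SurvNESmut-GFP (means of 154 and 231 CPM). In exposed SurvNESmut-GFP it was above SORT1 on that scale too (281 and 217 CPM). The exon length covers all annotated transcripts, and which of them the cells used is not known from gene counts.

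**Figure D3:**
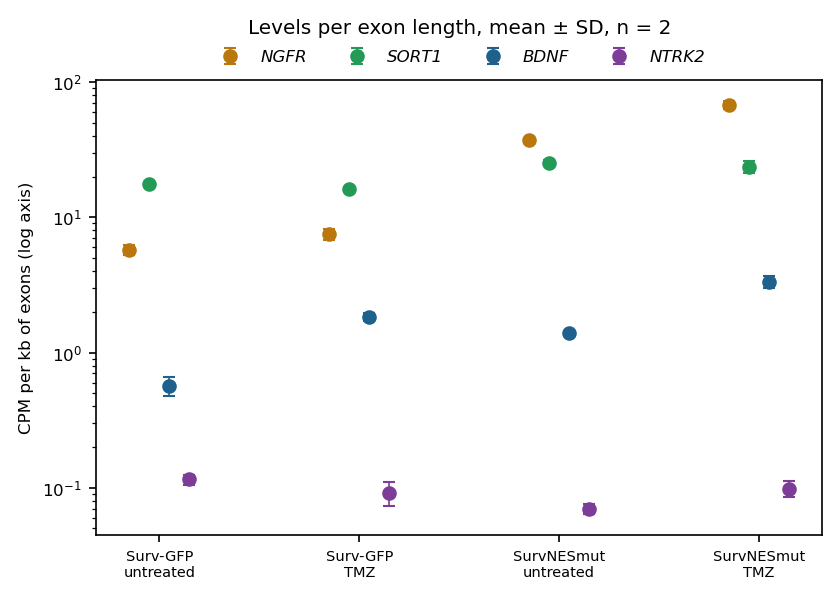
Mean CPM per kb of annotated exons ± SD (n = 2, log axis) of NGFR, SORT1, BDNF and NTRK2 in the 4 groups. NGFR is below SORT1 in both Surv-GFP groups, with 5.70 against 17.5 in untreated cells, and above it in both SurvNESmut-GFP groups, with 37.2 against 25.2 in untreated cells.

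Of 3 genes set beside the labels, only CDKN1A can check the exposure to TMZ, and none checks which clone is which. CDKN1A, the cell cycle inhibitor that p53 activates after DNA damage, rose with TMZ from 81.9 ± 6.60 to 941 ± 47.8 CPM in Surv-GFP and from 118 ± 1.07 to 460.3 ± 44.6 CPM in SurvNESmut-GFP (SD, n = 2). BIRC5, whose count can include the plasmid, was at 1133 ± 27.9 and 1984 ± 64.6 CPM in Surv-GFP without and with TMZ and at 411 ± 5.22 and 258 ± 6.89 CPM in SurvNESmut-GFP. MGMT, the enzyme that removes the methyl group TMZ leaves on guanine, had 0 reads in all 8 libraries. The gene counts of a library summed to between 15826923 and 18861603, and the lowest correlation of log2 CPM between replicates (0.994) exceeded the highest between groups (0.986).

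Of the glial and glioma markers, 8 of 10 were measurable, with VIM and CD44 high in every library, but GFAP, the defining astrocyte marker, was at 0 to 0.921 CPM and AQP4 at 0 to 0.163 CPM. NGFR is also a known marker of neural crest and Schwann cells. Of other markers of these cells, SOX10, the transcription factor of the lineage, had 1285 and 1243 CPM in untreated and 1078 and 1172 CPM in exposed Surv-GFP. In SurvNESmut-GFP it had 740.2 and 720.5 CPM without and 531 and 568 CPM with TMZ, lower where NGFR was higher. ERBB3 and FOXD3 were also lower in untreated SurvNESmut-GFP, with log2 differences of −1.86 (SE 0.09, adjusted p = 2.3e-11) and −0.82 (SE 0.18, adjusted p = 0.00074) by edgeR's quasi-likelihood test. The oligodendrocyte list (4 of 4 measured) summed to 251 to 537 CPM, the neuron list (4 of 6, with NEFL at 0) to 229 to 457 CPM and the fibroblast and mural list (5 of 5) to 82.3 to 142 CPM. Markers of other cells moved in both directions between the clones. Of the fibroblast and mural markers 2 were higher and 1 lower in SurvNESmut-GFP both without and with TMZ. DCN was higher by 1.24 and 1.99 on the log2 scale, while LUM was lower without TMZ (log2 difference −0.66). Of the oligodendrocyte markers 1 was higher and 2 were lower in either case. Of the glial and glioma markers 2 were higher and 5 lower without TMZ, and 3 and 4 with TMZ. Of the neuron markers 1 was higher and 1 lower without TMZ, and 2 and 1 with TMZ. The shares of all tested genes were 34.7% higher and 29.4% lower without TMZ, and 34.5% and 34.7% with TMZ. The leukocyte list (1 of 5 measured, with AIF1 at 0) summed to 12.1 to 21.9 CPM, nearly all CD68, and the endothelial list (1 of 4, with CLDN5 at 0) to at most 0.867 CPM. The part of these markers in the levels of the 6 genes was not tested.

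Other genes of the pathway were placed in 7 lists with 135 genes, of which 133 were in the file and 111 were tested. TMZ raised 40 and lowered 32 of the 111 in Surv-GFP, that is 36.0% and 28.8% against 30.1% and 28.9% of all tested genes, with a median log2 change of −0.001 (0 over all genes). In SurvNESmut-GFP 17 rose and 30 fell (15.3% and 27.0% against 18.6% and 19.1%), with a median of −0.04 (0.003 over all genes). The signed difference of the changes was above 0 for 19 and below 0 for 34 (17.1% and 30.6% against 16.6% and 20.2%). Between untreated clones 44 were higher and 40 lower in SurvNESmut-GFP (39.6% and 36.0% against 34.7% and 29.4%). Between exposed clones 35 were higher and 49 lower (31.5% and 44.1% against 34.5% and 34.7%), with a median of −0.09. Percentages of list genes given for a contrast are to be read against these shares of all genes. The lists as a whole thus moved in both directions in each contrast. In what follows all adjusted p-values are from edgeR's quasi-likelihood test.

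Of the ligands and processing enzymes, 5 of 12 were tested. TMZ raised 3 and lowered 0 of them in Surv-GFP (60% and 0%, against 30.1% and 28.9% of all genes). In SurvNESmut-GFP it raised 1 and lowered 2 (20% and 40%, against 18.6% and 19.1%). PLAT, the tissue plasminogen activator that starts the cleavage of proBDNF by plasmin, had 348 and 362 CPM in untreated and 586 and 552 CPM in exposed Surv-GFP cells. The log2 change was 0.68 (SE 0.05, adjusted p = 3e-09). FURIN, the convertase that cuts proneurotrophins inside the cell, rose in Surv-GFP from 158 and 160.2 CPM to 188 and 197 CPM and fell in SurvNESmut-GFP from 364 and 339 CPM to 265 and 284 CPM. Its log2 change was 0.28 (SE 0.05, adjusted p = 0.00036) in the former and −0.36 (SE 0.05, adjusted p = 5.7e-05) in the latter.

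In untreated cells 3 of the 5 measured genes of this list were higher and 2 lower in SurvNESmut-GFP (60% and 40%, against 34.7% and 29.4% of all genes). FURIN was higher by 1.14 (SE 0.05, adjusted p = 2e-11) on the log2 scale. CPE, a sorting receptor for proBDNF in the regulated secretory pathway, was lower (log2 difference −2.14), with 45.5 and 40.0 CPM in Surv-GFP and 10.5 and 8.83 CPM in SurvNESmut-GFP. PCSK7, a convertase related to FURIN, rose by 0.28 (SE 0.06, adjusted p = 0.0014) with TMZ in SurvNESmut-GFP.

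Only 4 of 11 receptors and co-receptors were measurable. TMZ raised 0 and lowered 1 of them in Surv-GFP (0% and 25%, against 30.1% and 28.9% of all genes). In SurvNESmut-GFP it raised 0 and lowered 2 (0% and 50%, against 18.6% and 19.1%). TNFRSF21, a death domain receptor of the family of NGFR, fell in Surv-GFP from 44.4 and 45.1 CPM to 32.0 and 27.8 CPM, a log2 change of −0.58 (SE 0.08, adjusted p = 5.2e-06). Its difference between the untreated clones, 0.17, passed the test narrowly (adjusted p = 0.048) and no longer did without replicate a or b of untreated Surv-GFP or replicate b of untreated SurvNESmut-GFP. TNFRSF19, another receptor of this family, was lower in untreated SurvNESmut-GFP, with 133 and 121 CPM against 388 and 382 CPM. It fell further with TMZ in that clone, to 62.4 and 94.0 CPM (log2 change −0.70, SE 0.12, adjusted p = 0.00016), a call that was lost with a robust prior. Without replicate a of these exposed cells the change was −0.43, and without replicate b −1.02.

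Of the enzymes that cleave NGFR and the adaptors that bind it, 22 of 25 were tested. TMZ raised 11 and lowered 9 in Surv-GFP (50.0% and 40.9%, against 30.1% and 28.9% of all genes), and raised 3 and lowered 6 in SurvNESmut-GFP (13.6% and 27.3%, against 18.6% and 19.1%). SQSTM1 (p62), a scaffold that links NGFR and Trk receptors to NF-κB signaling and autophagy, rose in Surv-GFP from 385 and 386 CPM to 1244 and 1205 CPM (log2 change 1.67, SE 0.05, adjusted p = 3.4e-14). In SurvNESmut-GFP its levels were 593 and 565 CPM without and 581 and 587 CPM with TMZ. RIPK2, a kinase that binds the death domain of NGFR, rose in both clones, by 1.74 (SE 0.08, adjusted p = 1.2e-11) in Surv-GFP and 0.69 (SE 0.08, adjusted p = 3.4e-06) in SurvNESmut-GFP. MAGED1 (NRAGE), a partner of NGFR in cell death, fell in both clones, with a log2 change of −0.85 (SE 0.06, adjusted p = 3.8e-09) in Surv-GFP and −0.82 (SE 0.06, adjusted p = 2.9e-08) in SurvNESmut-GFP.

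Without TMZ 11 genes of this list were higher and 4 lower in SurvNESmut-GFP (50.0% and 18.2%, against 34.7% and 29.4% of all genes). ADAM17, the sheddase that cuts the NGFR ectodomain, was higher, with 137 and 139 CPM against 74.6 and 72.2 CPM (log2 difference 0.91). PTPN13, a phosphatase that binds the C-terminus of NGFR, was lower, with 64.3 and 55.1 CPM against 156 CPM in both Surv-GFP libraries (log2 difference −1.39).

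The list of Trk adaptors and kinases was measured in full, with 44 genes. TMZ raised 16 and lowered 11 in Surv-GFP (36.4% and 25%) and raised 6 and lowered 11 in SurvNESmut-GFP (13.6% and 25%), shares near those of all genes (30.1% and 28.9%, then 18.6% and 19.1%). IRS2, an insulin receptor substrate, rose in Surv-GFP from 106 and 104 CPM to 195 and 209 CPM (log2 change 0.94, SE 0.06, adjusted p = 6.5e-10), and PIK3R1, the regulatory subunit of PI3K, fell there (log2 change −0.71, SE 0.07, adjusted p = 1.1e-07). RPS6KA2, a ribosomal S6 kinase of the ERK pathway, rose in SurvNESmut-GFP from 28.5 and 30.7 CPM to 80.6 and 71.7 CPM (log2 change 1.36, SE 0.08, adjusted p = 1.2e-09). SH2B3 (LNK), an adaptor that restrains receptor signaling, fell there (log2 change −0.45, SE 0.05, adjusted p = 2.3e-06). In untreated cells 22 of the 44 were higher and 11 lower in SurvNESmut-GFP (50.0% and 25%, against 34.7% and 29.4% of all genes), with SH2B3 higher by 1.79 and the adaptor GAB2 lower (log2 difference −1.19).

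Of 20 genes known to respond to neurotrophins, 18 were tested, and TMZ raised 7 and lowered 4 in Surv-GFP (38.9% and 22.2%, against 30.1% and 28.9% of all genes). In SurvNESmut-GFP it raised 4 and lowered 6 (22.2% and 33.3%, against 18.6% and 19.1%). VGF, a secreted peptide precursor induced by BDNF, rose in Surv-GFP from 58.0 and 51.6 CPM to 221 and 275 CPM (log2 change 2.18, SE 0.10, adjusted p = 2.5e-11). NR4A3, an orphan nuclear receptor of the immediate early type, moved in opposite directions. It rose in Surv-GFP from 1.03 and 0.662 CPM to 11.8 and 12.9 CPM (log2 change 3.85, SE 0.23, adjusted p = 5.9e-10). It fell in SurvNESmut-GFP from 8.30 and 7.67 CPM to 1.46 and 2.71 CPM (log2 change −1.95, SE 0.21, adjusted p = 2.6e-06).

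FOSB, an immediate early transcription factor, rose in SurvNESmut-GFP by 1.39 (SE 0.23, adjusted p = 0.00015), a call lost with a robust prior, as was its difference between the clones. NRN1, a neurite growth factor, fell in both clones. Its log2 change was −0.70 (SE 0.09, adjusted p = 3.3e-06) in Surv-GFP and −0.51 (SE 0.08, adjusted p = 0.00016) in SurvNESmut-GFP. The difference of these changes, 0.19, did not pass the test (adjusted p = 0.25). Without TMZ 4 of the 18 were higher and 10 lower in SurvNESmut-GFP (22.2% and 55.6%, against 34.7% and 29.4% of all genes), where NR4A3 was higher by 3.23 and DUSP6, a phosphatase of ERK, lower (log2 difference −1.26).

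Of the sortilin ligands and trafficking genes, 13 of 14 were tested, of which TMZ raised 2 and lowered 4 in Surv-GFP (15.4% and 30.8%) and raised 3 and lowered 2 in SurvNESmut-GFP (23.1% and 15.4%). All genes stood at 30.1% and 28.9%, then 18.6% and 19.1%. GGA1, a Golgi adaptor that binds the sortilin tail, rose by 0.35 (SE 0.05, adjusted p = 9.7e-06) in Surv-GFP and by 0.33 (SE 0.05, adjusted p = 9e-05) in SurvNESmut-GFP on the log2 scale. The related GGA2 fell in Surv-GFP (log2 change −0.60, SE 0.05, adjusted p = 7e-08), and LPL, a lipase that sortilin binds, fell in both clones, with changes of −0.70 (SE 0.10, adjusted p = 8.7e-06) in Surv-GFP and −0.62 (SE 0.11, adjusted p = 0.00043) in SurvNESmut-GFP on the log2 scale. Without replicate a of exposed SurvNESmut-GFP the latter was −0.38. In untreated SurvNESmut-GFP 1 of the 13 was higher and 8 were lower (7.69% and 61.5%, against 34.7% and 29.4% of all genes). PSAP, the precursor of the saposins, a sortilin cargo, was lower (log2 difference −0.71), and VPS29, a subunit of the retromer, was higher (log2 difference 0.41).

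GDNF and its relatives, which act on astrocytes and neurons through RET and GFRA receptors, were listed for comparison, and 5 of 9 were tested. TMZ raised 1 and lowered 3 in Surv-GFP (20% and 60%, against 30.1% and 28.9% of all genes). In SurvNESmut-GFP it raised 0 and lowered 1 (0% and 20%, against 18.6% and 19.1%). GDNF rose in Surv-GFP from 39.7 CPM in each replicate to 135 and 144 CPM (log2 change 1.81, SE 0.10, adjusted p = 1.3e-10). In SurvNESmut-GFP it went from 59.2 and 56.3 CPM to 36.1 and 51.2 CPM (log2 change −0.41, SE 0.10, adjusted p = 0.0053). That fall did not pass the test with a robust prior or DESeq2, nor without replicate a of the untreated (−0.38) or of the exposed (−0.17) SurvNESmut-GFP cells, and was −0.68 without replicate b of the exposed cells. GFRA1, the coreceptor of GDNF, fell in Surv-GFP from 82.6 and 68.1 CPM to 36.5 and 38.5 CPM (log2 change −1.01, SE 0.08, adjusted p = 2.7e-08). RET had 1 read in untreated SurvNESmut-GFP and 0 reads in the other groups, and did not pass the filter on low counts. Unlike GDNF, BDNF was thus higher after TMZ in both clones.

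**Figure D4:**
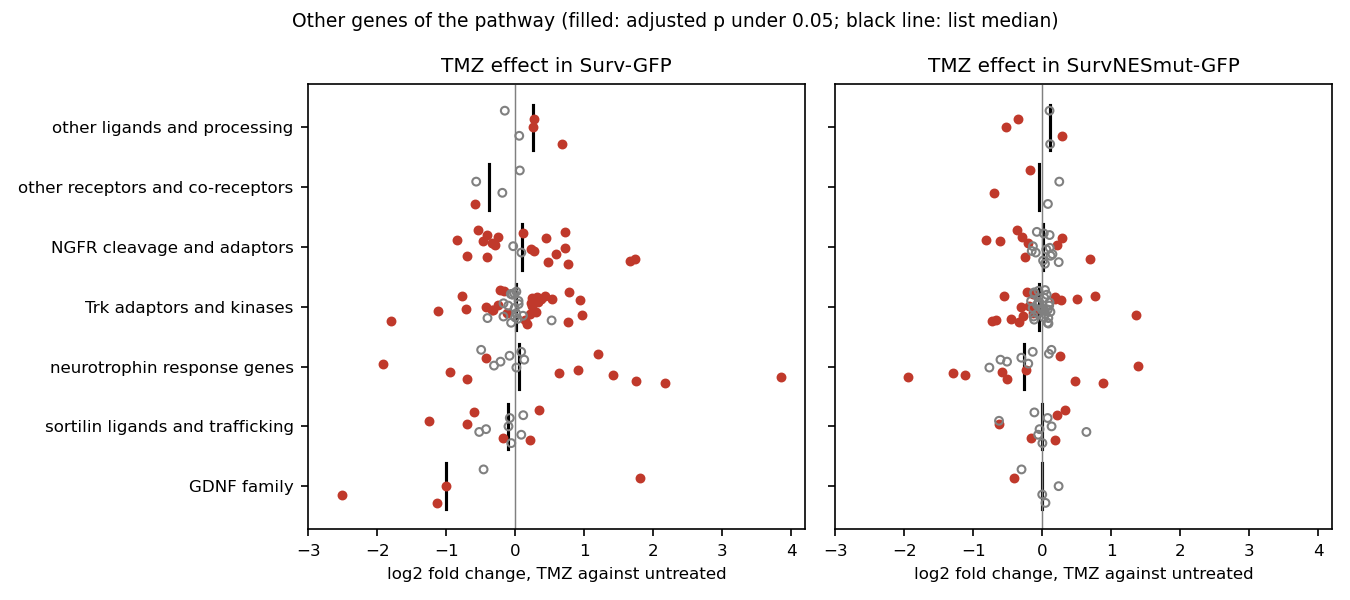
Log2 fold change with TMZ of the 111 tested genes of the 7 pathway lists in Surv-GFP (left) and SurvNESmut-GFP (right). Each circle is a gene, filled where the adjusted p is under 0.05, and black lines give the list medians. In Surv-GFP 72 genes are filled (40 higher, 32 lower), and in SurvNESmut-GFP 47 (17 higher, 30 lower).

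The genes whose pattern over the 8 libraries was most like that of each measured gene were found by Pearson's correlation of log2 CPM, as a description. The 8 points fall into 4 groups, so that a high r mainly states a like spacing of the group means. For NGFR they were RGS7 (r = 0.999), SPTBN5 (r = 0.999) and COL7A1 (r = 0.998), and for BDNF TSPAN11 (r = 0.997), GPX1 (r = 0.993) and RAD51C (r = 0.992). For SORT1 they were ARIH1 (r = 0.992), GMCL1 (r = 0.991) and WNT3 (r = 0.991), and for NTRK2 they included TCN2 (r = 0.956) and NPTXR (r = 0.928). By Spearman's correlation 0 of 3 remained among the nearest 3 for NGFR, BDNF and SORT1 each.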

How the data were processed

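RNA-seq was performed by the authors on LN229 clones in 4 groups of 2 libraries, assigned from the sample labels. The deposited table holds raw read counts per gene symbol, not normalized by the authors, with 2 rows that name no gene. These unassigned reads (11.2 to 14.3%, no feature, and 1.19 to 1.28%, ambiguous) were left out. The submitters' processing notes name STAR 2.5.0b, Cufflinks 2.2.1 and edgeR without their roles. For the genome build, annotation, counting program and strandedness, nothing is given in the sources used here. The authors' 5 tables of comparisons (fold changes, mean expression, F statistics and significance) were not used.

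The counts were normalized by TMM, filtered on low counts by group and fitted in 1 quasi-likelihood model with 4 group means (edgeR 4.0.16 and limma 3.58.1 in R 4.3.3, all 8 libraries). Over the 14201 tested genes, p-values were adjusted by Benjamini-Hochberg at 0.05. Tested in 5 contrasts were TMZ against untreated cells in each clone, the difference between both effects, and SurvNESmut-GFP against Surv-GFP cells, untreated or exposed. The fit was tested on simulated data. Replicates differed by more than counting noise, most of all in exposed SurvNESmut-GFP. Their chi-square per gene against counting error was 5.74 there and 2.21 to 2.66 in the other groups. The fit shares its estimate of the spread among the groups, so SEs of contrasts with exposed SurvNESmut-GFP may be too small.

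The 6 genes and the lists were chosen with earlier results of these data known. From each list the gene with the smallest p in each direction was named, if its adjusted p was under 0.05. This was done for both TMZ effects and the untreated clone difference. Also named were the 3 genes most like each measured gene, NTF4, the antisense genes (NTRK3-AS1 had 0 reads) and 3 genes set beside the labels. A few genes that this rule or the marker lists select are not reported here. Results were recomputed without a filter, with a filter of 1 CPM in 2 libraries, with scaling by library size or by the size factors of DESeq2, with DESeq2 1.42.0 itself, with a robust prior, with edgeR 4's own quasi-likelihood estimate, with the replicate letter as a block, on the 4 libraries of a contrast, and leaving out each library in turn. Exon lengths are from GENCODE v29.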

Additional observations from a re-analysis of the deposited data

Results flagged for a closer look

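For 17 of the pathway genes named for a TMZ effect, this effect differed between the clones. The test was edgeR's quasi-likelihood test of the difference itself, SurvNESmut-GFP minus Surv-GFP on the log2 scale. By this test 16.6% of all tested genes were higher and 20.2% lower. The differences of MAGED1, NRN1, GGA1 and LPL, the remaining genes named for a TMZ effect, did not pass it. Most of the 17 genes were named for having the smallest p of a list and direction in 1 clone. A difference between the clones is therefore in part fixed by that choice.

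NR4A3, FURIN and GDNF passed the test in opposite directions in the clones (GDNF in SurvNESmut-GFP not with DESeq2 or a robust prior), with differences of −5.80 (adjusted p = 1.6e-09), −0.64 (adjusted p = 8e-06) and −2.22 (adjusted p = 7.7e-09). SQSTM1, which changed by 1.67 in the Surv-GFP clone and by 0.01 in the other, differed by −1.65 (adjusted p = 2.5e-11). VGF, RIPK2 and IRS2 rose in both clones and less in SurvNESmut-GFP, with differences of −1.29 (adjusted p = 7e-05), −1.04 (adjusted p = 2.2e-06) and −0.68 (adjusted p = 1.1e-05). The call of IRS2 in SurvNESmut-GFP was lost without replicate a of the untreated cells (0.20 against 0.27). PLAT rose in Surv-GFP and had a change of 0.11 in SurvNESmut-GFP, a difference of −0.57 (adjusted p = 6e-06).

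TNFRSF21, PIK3R1, GGA2 and GFRA1 fell in Surv-GFP, with changes of 0.08, 0.01, −0.11 and 0.24 in SurvNESmut-GFP that did not pass the test (that of GFRA1 did under some alternatives). Their differences were 0.66 (adjusted p = 1e-04), 0.72 (adjusted p = 2.6e-05), 0.48 (adjusted p = 9.7e-05) and 1.25 (adjusted p = 1.4e-06). SH2B3 and TNFRSF19 fell in SurvNESmut-GFP, with changes of 0.03 and −0.19 in Surv-GFP, and differed by −0.49 (adjusted p = 7.6e-05) and −0.51 (adjusted p = 0.016).

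FOSB rose in SurvNESmut-GFP against −0.31 in Surv-GFP, a difference of 1.70 (adjusted p = 0.00085) whose call was lost with a robust prior. RPS6KA2 rose in both clones with a difference of 0.39 (adjusted p = 0.026), and PCSK7 had a change of 0.06 in Surv-GFP and a difference of 0.23 (adjusted p = 0.045). The difference of PCSK7 lost its call when any 1 library was left out, at 0.15 to 0.25, except replicate b of the exposed cells of either clone. That of RPS6KA2 lost it without replicate a of untreated or replicate b of exposed Surv-GFP and without replicate a of untreated or exposed SurvNESmut-GFP, at 0.30 to 0.36. That of TNFRSF19 lost it without replicate b of exposed Surv-GFP (−0.46) or replicate a of untreated SurvNESmut-GFP (−0.44) and with a robust prior. It was −0.25 without replicate a and −0.83 without replicate b of exposed SurvNESmut-GFP.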

How the results depend on the processing

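The counts of genes called kept within 1.5 times in all alternatives for each contrast, and so did those of the pathway lists. They ranged from 6939 to 8742 for the TMZ effect in Surv-GFP, 3748 to 5707 in SurvNESmut-GFP and 3835 to 5509 for the difference. The log2 fold changes of NGFR, BDNF, SORT1 and NTRK2 moved by less than the replicate spread wherever no library was left out. With a library left out, NGFR ranged over 0.27 to 0.48 in the TMZ effect in Surv-GFP, 0.38 to 0.60 in the difference and 3.05 to 3.27 in the clone difference with TMZ. BDNF ranged over 1.53 to 1.85 in the TMZ effect in Surv-GFP, −0.60 to −0.29 in the difference and 1.15 to 1.46 in the untreated clone difference. NTRK2 ranged over −0.54 to −0.17, 0.65 to 1.03 and, with TMZ between the clones, −0.10 to 0.28. SORT1 ranged over −0.19 to 0.010 in the TMZ effect in SurvNESmut-GFP, −0.075 to 0.13 in the difference and 0.42 to 0.62 between exposed clones. Without replicate b of exposed SurvNESmut-GFP 2 of the 6 genes were called in the difference instead of 1. The causes were not tested.

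Small changes that did not pass the test turned sign for SH2B3 (−0.00755 with the filter of 1 CPM and −0.015 to 0.090 with libraries left out), FOSB (−0.83 to 0.22) and PCSK7 (−0.012 to 0.10) in Surv-GFP, and for PIK3R1 (−0.051 to 0.075) and SQSTM1 (−0.024 to 0.046) in SurvNESmut-GFP. FOSB passed the test in Surv-GFP without replicate b of the untreated (−0.69) or exposed (−0.83) cells, and GFRA1 in SurvNESmut-GFP without replicate b of the exposed cells (0.32), with library size alone (0.27), without a filter (0.23), on the 4 libraries alone (0.24) and with the letter as a term (0.24). With DESeq2 the fall of GDNF in SurvNESmut-GFP and the differences of PCSK7, RPS6KA2 and TNFRSF19 lost their calls. The untreated clone difference of TNFRSF21 lost its call with both other scalings, both other filters, DESeq2, the letter as a term and the 4 libraries alone, at 0.11 to 0.17.

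Deviations between the replicate letters, taken over all tested genes, were nearly uncorrelated between groups, with r from −0.067 to 0.083. Such correlations cannot show an effect of the letter that is limited to some genes. Whether libraries of the same letter were made as pairs cannot be told from these values. With the replicate block 8203 genes were called in the TMZ effect in Surv-GFP (8371 without), 5179 in SurvNESmut-GFP (5367) and 5074 in the difference (5226), and NGFR changed by 0.39 and 0.86 with TMZ. The replicate block ended the calls of the PCSK7 difference (0.22) and of TNFRSF21 between untreated clones. Genes counted with few reads, such as NTRK2, NTF3 and NTRK3, are limited by depth.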
